A study of Mus musculus with 6 samples.

Results

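The cell cycle and mitosis genes examined here were 40 genes listed by symbol, 16 that act in S phase (DNA replication and entry into it) and 24 that act in G2 and mitosis. They were found by matching Ensembl identifiers to symbols in a raw count table of 55536 genes, and the rule set no threshold on measured values. All 40 were present in the table, and all 40 passed the filter on low counts that left 20622 genes to test.

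A dividing cell copies its DNA once in S phase and then separates the copies in mitosis. Origins of replication are licensed by Cdc6 and Cdt1, which load the MCM helicase. Replication genes are switched on late in G1 by E2F transcription factors once the retinoblastoma protein is phosphorylated by cyclin-dependent kinases. Mitotic genes follow in G2, driven by the MuvB complex together with Mybl2 and Foxm1. In stratified skin, division is largely a property of the basal layer, and cells that move up leave the cycle, so these transcripts serve as a common gauge of proliferation in basal keratinocytes.

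Transcripts were measured by bulk RNA-seq in basal keratinocytes of E16.5 mouse embryos, obtained from dorsal skin by sorting for Epcam and alpha-6 integrin, with 3 libraries each for Ctrl and TKO. Embryos of both groups were Suv39h1 f/f, Suv39h2-/- and Setdb1 f/f, and both groups received tamoxifen. TKO embryos carried K14CreERT2, a recombinase made in keratinocytes and active only with tamoxifen, and Ctrl embryos did not. The comparison therefore asked how transcripts differ once Suv39h1 and Setdb1, enzymes that place the repressive histone mark H3K9me3, are removed from cells that already lack Suv39h2. Deletion in this model is described by the study as often mosaic, so a TKO library can hold cells that kept the enzymes. Total counts were 102159175, 136515436 and 104422632 in Ctrl replicates 1 to 3 and 116308383, 108957256 and 118413082 in TKO replicates 1 to 3. Library names marked Ctrl 1 and TKO 2 as female and the others as male. At this depth the least counted member, Gins2, had at least 1341 counts in every library. Reads of the 40 genes made up between 0.405% (Ctrl 3) and 0.503% (Ctrl 2) of a library's counts. Values are given below as CPM, the count of a gene scaled to a common library size after TMM normalization. In bulk samples fewer dividing cells and less RNA per dividing cell cannot be told apart.

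Because both classes are best known for being switched on through short promoter elements, the promoters of the 2 S-phase and 2 G2/M members with the smallest p-values that had a sequence are shown. Each run is 300 bases, from 250 bases before to 50 after the RefSeq gene start (GRCm38.p6), printed 5′ to 3′ on the strand of the gene. Capitals mark, on either strand, the TTTGAA form of the cell cycle genes homology region, the CCAAT box (CCAAT) and 2 forms of the E2F site (TTCCCGC or TTGGCGC).
Rrm2, S phase, chr12:24708004-24708303 (+): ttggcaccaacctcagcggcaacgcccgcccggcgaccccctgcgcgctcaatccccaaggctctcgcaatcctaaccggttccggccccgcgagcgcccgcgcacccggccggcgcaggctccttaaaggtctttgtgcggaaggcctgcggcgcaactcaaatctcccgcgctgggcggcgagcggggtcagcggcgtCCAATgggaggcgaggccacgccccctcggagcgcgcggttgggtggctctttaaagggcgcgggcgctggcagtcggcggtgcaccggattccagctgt
Mcm6, S phase, chr1:128359656-128359955 (-): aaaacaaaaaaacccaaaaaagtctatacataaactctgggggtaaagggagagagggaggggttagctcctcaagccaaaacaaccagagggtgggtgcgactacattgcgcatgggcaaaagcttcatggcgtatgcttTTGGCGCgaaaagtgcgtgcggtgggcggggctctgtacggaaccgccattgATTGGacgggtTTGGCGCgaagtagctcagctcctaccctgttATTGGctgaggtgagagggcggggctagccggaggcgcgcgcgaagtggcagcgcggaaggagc
Bub1, G2/M, chr2:127831810-127832109 (-): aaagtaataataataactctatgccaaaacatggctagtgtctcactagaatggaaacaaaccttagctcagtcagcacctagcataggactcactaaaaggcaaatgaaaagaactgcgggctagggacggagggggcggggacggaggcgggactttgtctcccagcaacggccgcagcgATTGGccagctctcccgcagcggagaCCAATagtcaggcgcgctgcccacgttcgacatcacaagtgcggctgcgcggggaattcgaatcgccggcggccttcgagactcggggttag
Ube2c, G2/M, chr2:164769679-164769978 (+): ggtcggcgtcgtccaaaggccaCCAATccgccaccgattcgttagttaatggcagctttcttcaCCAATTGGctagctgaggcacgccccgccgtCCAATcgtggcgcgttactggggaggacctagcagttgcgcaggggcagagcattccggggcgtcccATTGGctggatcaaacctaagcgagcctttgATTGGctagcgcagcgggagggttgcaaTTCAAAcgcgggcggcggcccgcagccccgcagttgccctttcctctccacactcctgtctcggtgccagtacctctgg

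Mcm6 held 2 E2F matches and 2 CCAAT boxes, Rrm2 held 1 CCAAT box, and Bub1 held 2. Ube2c held 6 CCAAT boxes, a pair of which overlap as CCAATTGG, and 1 homology region. Among members, 32 of 40 had a promoter in the RefSeq table, Mcm7 with a pair of starts. Aurkb, Ccna2, Ccne2, Cdc25c, Gins2, Kif20a, Mcm4 and Tpx2 were the others. The homology region was found in 14 of 19 G2/M promoters (73.7%) and in 1 of 14 S-phase promoters (7.14%), that of Mcm2, against 17.9% of all 32851 promoters in the table. E2F letters were found in 8 of 14 S-phase promoters (57.1%), among them those of Mcm3, Mcm5, Mcm6, Mcm7, Cdc6, Cdt1 and Rrm1. They were found in 3 of 19 G2/M promoters (15.8%), those of Ccnb1, Cdk1 and Mki67, and in 6.81% of all promoters. The CCAAT box was found in 17 of 19 G2/M promoters (89.5%), in 9 of 14 S-phase promoters (64.3%) and in 37.4% of all. A match describes the letters in the window and is not a measurement of binding. Other forms of these elements were not searched, so a promoter without a match can still hold one.

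The targeted genes were read first. Setdb1, a methyltransferase for H3K9me3, was at 125.5, 117.9 and 121.1 CPM in Ctrl and 95.3, 62.3 and 74.9 CPM in TKO, with no overlap between the groups. Its log2 fold change was -0.65 ± 0.161 (SE), and the adjusted p was 0.286 by edgeR's quasi-likelihood test with Benjamini-Hochberg adjustment. Suv39h1, a methyltransferase of constitutive heterochromatin, was at 88.7, 78.5 and 84.0 CPM in Ctrl and 75.6, 68.9 and 89.4 CPM in TKO, so its groups overlapped (log2 fold change -0.10). The value for Suv39h1 was -0.06 without Ctrl 1 and -0.15 without Ctrl 2. Suv39h2 was at 15.9, 17.1 and 15.6 CPM in Ctrl and 18.9, 16.0 and 17.5 CPM in TKO, although its deletion is shared by all 6 libraries. Counts over whole genes can include reads from exons outside a deleted stretch and from cells that kept the enzymes, so these levels check the labels only in part. The share of either was not tested.

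The sorted cells carried the markers of the basal layer. Krt5 was at 12318, 12051 and 8179 CPM in Ctrl and 6994, 8037 and 9022 CPM in TKO, and Itga6, the gene for the sorted integrin, ranged from 461.5 to 582.8 CPM over the 6 libraries. Summed over 8 basal markers, of which Krt5 was the most abundant, levels were 24329, 24101 and 18107 CPM in Ctrl and 15025, 16826 and 19231 CPM in TKO, so TKO 3 lay above Ctrl 3. The basal keratin Krt15 was at 2716, 2579 and 2089 CPM in Ctrl and 900.8, 792.0 and 1573 CPM in TKO, with no overlap. Its log2 fold change was -1.18 (-1.75 to -0.61) and its adjusted p 0.185 by edgeR's quasi-likelihood test. For Krt5 and Krt14 log2 fold changes were -0.44 (-0.89 to 0.02) and -0.30 (-0.71 to 0.11). Among the other basal markers Itgb4, an integrin subunit of the hemidesmosome, was higher in TKO with no overlap (0.24, -0.10 to 0.57), and Epcam, Trp63, Itga6 and Col17a1 had log2 fold changes of 0.13, 0.08, 0.03 and -0.04. Of the 8 basal markers 4 were thus above 0 and 4 below, with a median log2 fold change of -0.0023. The suprabasal keratins were abundant too, with Krt1 at 9973, 9778 and 10073 CPM in Ctrl and 8516, 6100 and 6305 CPM in TKO. Summed over 8 suprabasal markers, of which Krt1 was the most abundant, levels were 19100, 18895 and 20714 CPM in Ctrl and 16846, 12718 and 13510 CPM in TKO. Of these 8, Krt1 and Krt10 were lower in TKO at an unadjusted p under 0.05 and none was called. Lor, Sbsn and Flg, which serve later steps of cornification, had log2 fold changes of 0.49, 0.41 and 0.24 with overlapping groups, so 3 of the 8 were above 0 and 5 below, with a median of -0.04. Besides Krt15, the only basal marker of 8 at that level, there were Merkel cell markers (5 of 5 tested lower in TKO), skeletal muscle markers (3 of 6 higher, with Myh3 called) and 1 higher marker each of endothelial cells and melanocytes. Markers of hair follicle, fibroblasts, immune cells, erythroid cells and nerve gave none, beside 6.08% of all tested genes in either direction. The 6 fibroblast markers, of which Col1a1 was the most abundant, summed to 1203, 3358 and 3009 CPM in Ctrl. In TKO they summed to 2162, 2564 and 2807 CPM. The libraries thus held transcripts typical of fibroblasts, at levels that differed within Ctrl. Summed over 6 hair follicle markers, levels were 381, 377 and 426 CPM in Ctrl and 325, 374 and 550 CPM in TKO. TKO 3 was thus highest, and its share of mitochondrial counts, 2.89%, was also the highest of the 6 libraries. The part of these markers and of this share in the levels of the cell cycle genes was not tested.

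No cell cycle gene among the 40 passed the test between TKO and Ctrl, and their fitted log2 fold changes lay between -0.28 (Gins2) and 0.35 (Rrm2). A gene was called at an adjusted p under 0.05 with an absolute log2 fold change above 1. Members called were thus 0 of 40, against 0.131% of all tested genes (27 of 20622, all 27 higher in TKO, with 416 genes lower at an unadjusted p under 0.05). On the same genes DESeq2 called 193 higher and 21 lower, with 0 of the 40 members among them. At an unadjusted p under 0.05, 1 of 40 members stood apart, against 6.08% of all genes in either direction and 4.06% in the direction of that member, which was higher in TKO. Values of TKO and Ctrl did not overlap for 2 of 40 members, against 11.5% of all genes (6.35% with TKO higher and 5.11% with TKO lower). The median log2 fold change was 0.03 for S-phase members and 0.07 for G2/M members, beside 0.01 for all tested genes. With 40 genes, these counts are too small to set the members apart from all genes.

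Each difference was bounded at the fold threshold of the call, but not more tightly for every member. The 95% confidence interval of every one of the 40 members lay inside a log2 fold change of -1 to 1, and for 39 it included 0. The widest reach downward was that of Cenpf (-0.82, a change of -43.5%) and the widest upward that of Bub1 (0.76, or 69.4%). For Mki67 the interval ran from -37.9% to 44.2%, so sizeable changes in either direction remain possible. For comparison, the interval lay inside these bounds for 10965 of the 20622 tested genes. Replicates are separate samples in the labels. Each p-value sets a group difference against the spread between samples, which the fit estimates with information shared over genes.

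**Figure D1:**
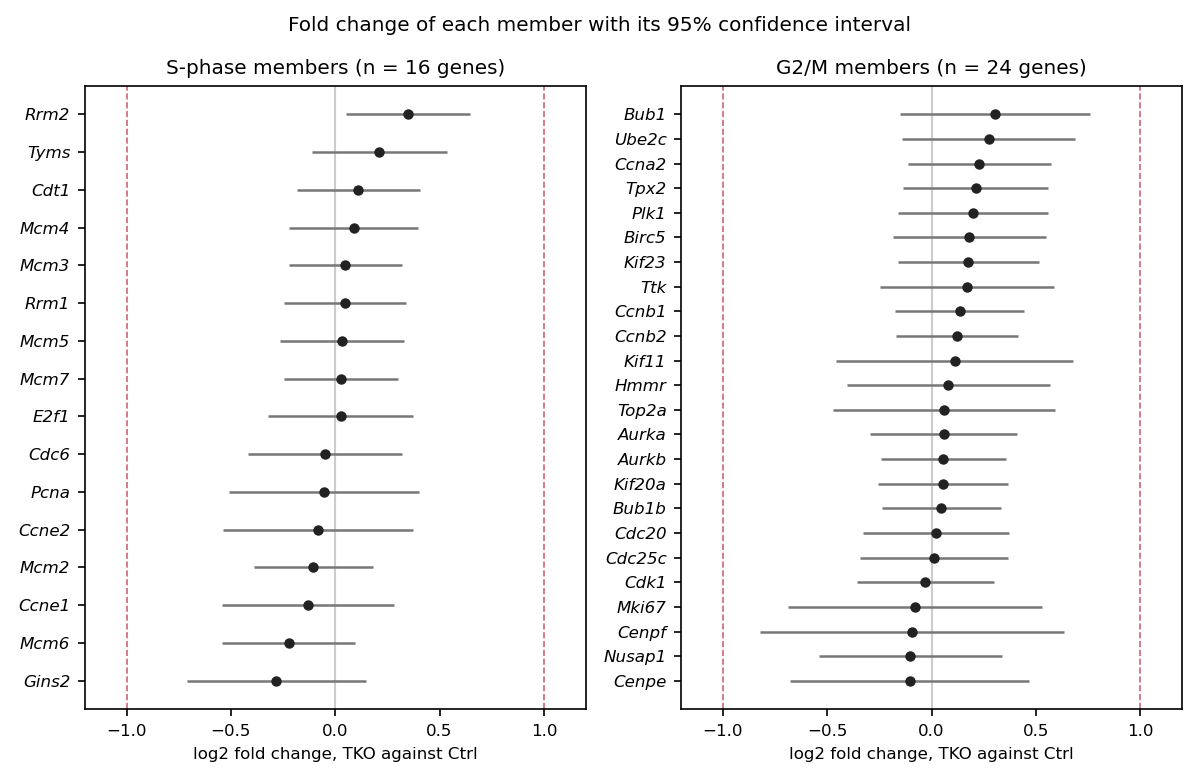
Log2 fold change of TKO against Ctrl (horizontal axis) for each of the 16 S-phase and 24 G2/M members, with points for the fitted value and lines for the 95% confidence interval. Dashed lines mark -1 and 1, all intervals lie between them, and only that of Rrm2 leaves out 0.

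Among S-phase members, the highest fitted fold changes were those of Rrm2 and Tyms, which make DNA precursors. Rrm2, the regulated subunit of ribonucleotide reductase, was at 92.7, 97.4 and 89.4 CPM in Ctrl and 110.0, 136.2 and 109.4 CPM in TKO. All TKO libraries lay above all Ctrl libraries, and TKO 2 stood highest. Its log2 fold change was 0.35 (95% interval 0.05 to 0.64), with an unadjusted p of 0.0263 and an adjusted p of 0.729 by edgeR's quasi-likelihood test, so it did not pass. Without TKO 2 the value was 0.23. A predicted gene, Gm59512, has exons on the opposite strand at this locus, and the strand setting of the counting is not given in the sources used here.

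Tyms, which makes thymidylate, was at 77.5, 76.0 and 66.4 CPM in Ctrl and 75.7, 79.3 and 99.5 CPM in TKO, and of the TKO libraries TKO 2 and TKO 3 exceeded every Ctrl value. For Tyms the log2 fold change was 0.21 (-0.11 to 0.53), and 0.08 without TKO 3. The constitutive partner of Rrm2, Rrm1, had a log2 fold change of 0.05 (-0.25 to 0.34).

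The 6 subunits of the MCM helicase, which unwinds DNA at the fork, had log2 fold changes between -0.22 and 0.09, 4 above 0 and 2 below. Mcm6 was at 173.4, 220.5 and 167.9 CPM in Ctrl and 162.7, 153.1 and 165.2 CPM in TKO. These groups did not overlap, but the closest Ctrl and TKO libraries were less than 3 CPM apart, and Ctrl 2 was far above the rest. The log2 fold change of Mcm6 was -0.22 (-0.54 to 0.09), and -0.09 without Ctrl 2. Mcm2 was at 158.9, 146.7 and 141.1 CPM in Ctrl and 126.8, 136.0 and 152.3 CPM in TKO, with overlapping groups and a log2 fold change of -0.11 (-0.39 to 0.18). Without TKO 1 or Ctrl 1 the value for Mcm2 was -0.05 or -0.06, and without TKO 3 it was -0.18. Mcm3, Mcm4, Mcm5 and Mcm7 had log2 fold changes of 0.05, 0.09, 0.03 and 0.03.

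None of the genes of origin licensing and firing (Gins2, Cdt1 and Cdc6), nor the clamp gene Pcna, had an unadjusted p under 0.05. Gins2, a subunit of the GINS complex that activates the helicase, was at 17.4, 19.1 and 12.4 CPM in Ctrl and 14.0, 14.0 and 12.2 CPM in TKO. Ctrl 3 lay within the TKO range, and the log2 fold change was -0.28 (-0.71 to 0.15), with -0.15 without Ctrl 2 and -0.45 without Ctrl 3. Cdt1, the licensing factor, was at 48.1, 44.8 and 53.2 CPM in Ctrl and 50.2, 51.5 and 56.1 CPM in TKO. For Cdt1 the log2 fold change was 0.11 (-0.18 to 0.40), with 0.05 without Ctrl 2, 0.06 without TKO 3 and 0.18 without Ctrl 3, and its partner Cdc6 had a log2 fold change of -0.05. Pcna, the sliding clamp of the replicative polymerases, was at 118.1, 145.5 and 76.9 CPM in Ctrl and 110.2, 107.5 and 110.1 CPM in TKO. The 3 TKO values of Pcna lay almost at 1 level inside the broad Ctrl range, and the log2 fold change was -0.06 (-0.51 to 0.40), with 0.16 without Ctrl 2 and -0.27 without Ctrl 3.

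Regulators of the G1/S transition completed the class. E2f1, an activating E2F factor, was at 23.3, 19.5 and 24.4 CPM in Ctrl and 21.0, 22.3 and 25.1 CPM in TKO, a log2 fold change of 0.03 (-0.32 to 0.37). Ccne1 and Ccne2, the E-type cyclins that activate Cdk2, had log2 fold changes of -0.13 (-0.54 to 0.28) and -0.08 (-0.54 to 0.37).

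Of the 24 G2/M members, 19 had a fitted log2 fold change above 0 and 5 below, and the values of TKO and Ctrl overlapped for each of the 24. The median of the class was 0.07. It was -0.03 without Ctrl 3 and lay between 0.05 and 0.21 when any of the other 5 libraries was left out, highest without Ctrl 2. None had an unadjusted p under 0.05, and the smallest was 0.167, that of Bub1, by edgeR's quasi-likelihood test. Their log2 fold changes ran from -0.11 (Cenpe) to 0.30 (Bub1).

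The proliferation marker Mki67, whose protein coats mitotic chromosomes, was at 394.8, 715.9 and 385.6 CPM in Ctrl and 623.3, 418.9 and 373.6 CPM in TKO. Ctrl 2 and TKO 1 stood high and the other libraries of both groups lay close together. The log2 fold change was -0.08 ± 0.272 (SE), with an interval of -0.69 to 0.53, and ran from -0.34 without TKO 1 to 0.27 without Ctrl 2. By staining of skin, the study reports less Ki67 protein and fewer EdU-labelled basal cells in TKO at E16.5. Those assays measure protein and DNA synthesis in tissue, unlike RNA of sorted cells, and how they relate to these RNA levels was not tested. Top2a, the topoisomerase that untangles sister chromatids, was at 426.6, 563.9 and 317.3 CPM in Ctrl and 534.3, 494.0 and 334.2 CPM in TKO, and the third library of each group was its lowest. Its log2 fold change was 0.06 (-0.47 to 0.59), from -0.13 without Ctrl 3 to 0.29 without Ctrl 2. Cenpf, a kinetochore protein, had the widest interval of all members, -0.82 to 0.63 around -0.09.

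Cyclins and kinases of mitotic entry varied less. Cdk1, the mitotic kinase, was at 121.5, 106.9 and 86.6 CPM in Ctrl and 103.2, 108.2 and 97.1 CPM in TKO, a log2 fold change of -0.03 (-0.36 to 0.30), from -0.15 without Ctrl 3 to 0.09 without Ctrl 1. Its partner Ccnb1 was at 168.4, 181.6 and 139.8 CPM in Ctrl and 170.5, 176.2 and 190.8 CPM in TKO, a log2 fold change of 0.13 (-0.18 to 0.44), with 0.03 without Ctrl 3, 0.09 without TKO 3 and 0.22 without Ctrl 2. In both genes the lowest library was Ctrl 3, and the TKO libraries otherwise lay among the Ctrl libraries or just above. Ccna2, the cyclin of S phase and G2, was at 131.1, 171.8 and 119.8 CPM in Ctrl and 161.9, 161.8 and 171.4 CPM in TKO. Its log2 fold change was 0.23 (-0.11 to 0.57), with 0.39 without Ctrl 2 and 0.12 without Ctrl 3, and Exosc9 has exons on the opposite strand there.

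Plk1, a kinase of centrosome maturation and mitotic exit, was at 102.0, 93.0 and 83.4 CPM in Ctrl and 91.1, 98.3 and 130.1 CPM in TKO. TKO 3 alone lay above the Ctrl range, and the log2 fold change was 0.20 (-0.16 to 0.56), with 0.03 without TKO 3 and 0.12 without Ctrl 3. The other genes of this group were Ccnb2 (log2 fold change 0.12), the Cdk1-activating phosphatase Cdc25c (0.01), the Aurora kinases Aurka and Aurkb (0.06 each) and Birc5, survivin, the partner of Aurkb (0.18).

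The spindle checkpoint, which holds anaphase until chromosomes are attached, was represented by Bub1, Bub1b and Ttk. Bub1 was at 49.0, 65.2 and 41.8 CPM in Ctrl and 75.5, 67.8 and 49.4 CPM in TKO. TKO 1 and TKO 2 lay above all Ctrl libraries and TKO 3 among them, with a log2 fold change of 0.30 ± 0.204 (SE; -0.15 to 0.76) and an adjusted p of 0.9998 by edgeR's quasi-likelihood test. Without Ctrl 3 or TKO 1 the value for Bub1 was 0.17 or 0.16, and without Ctrl 2 or TKO 3 it was 0.50 or 0.46. Bub1b and Ttk had log2 fold changes of 0.05 and 0.17. Cdc20 and Ube2c act with the anaphase-promoting complex, which ends the checkpoint. Ube2c was at 112.8, 111.0 and 95.3 CPM in Ctrl and 101.0, 118.1 and 166.6 CPM in TKO, where TKO 3 was far above the other libraries (log2 fold change 0.27, -0.14 to 0.69). Leaving out TKO 3 gave 0.04 for Ube2c, and leaving out TKO 1 gave 0.42. Cdc20 had a log2 fold change of 0.02.

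Genes of the spindle and its motors were spread around 0. Tpx2, which activates Aurora A on the spindle, was at 155.9, 169.5 and 134.4 CPM in Ctrl and 157.6, 164.2 and 210.6 CPM in TKO. As for Ube2c and Plk1, TKO 3 was the library that stood out, and the log2 fold change was 0.21 (-0.14 to 0.56), with 0.07 without TKO 3 and 0.12 without Ctrl 3. Kif23, Kif11, Hmmr and Kif20a had log2 fold changes of 0.18, 0.11, 0.08 and 0.05, and Nusap1 and Cenpe of -0.10 and -0.11.

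**Figure D2:**
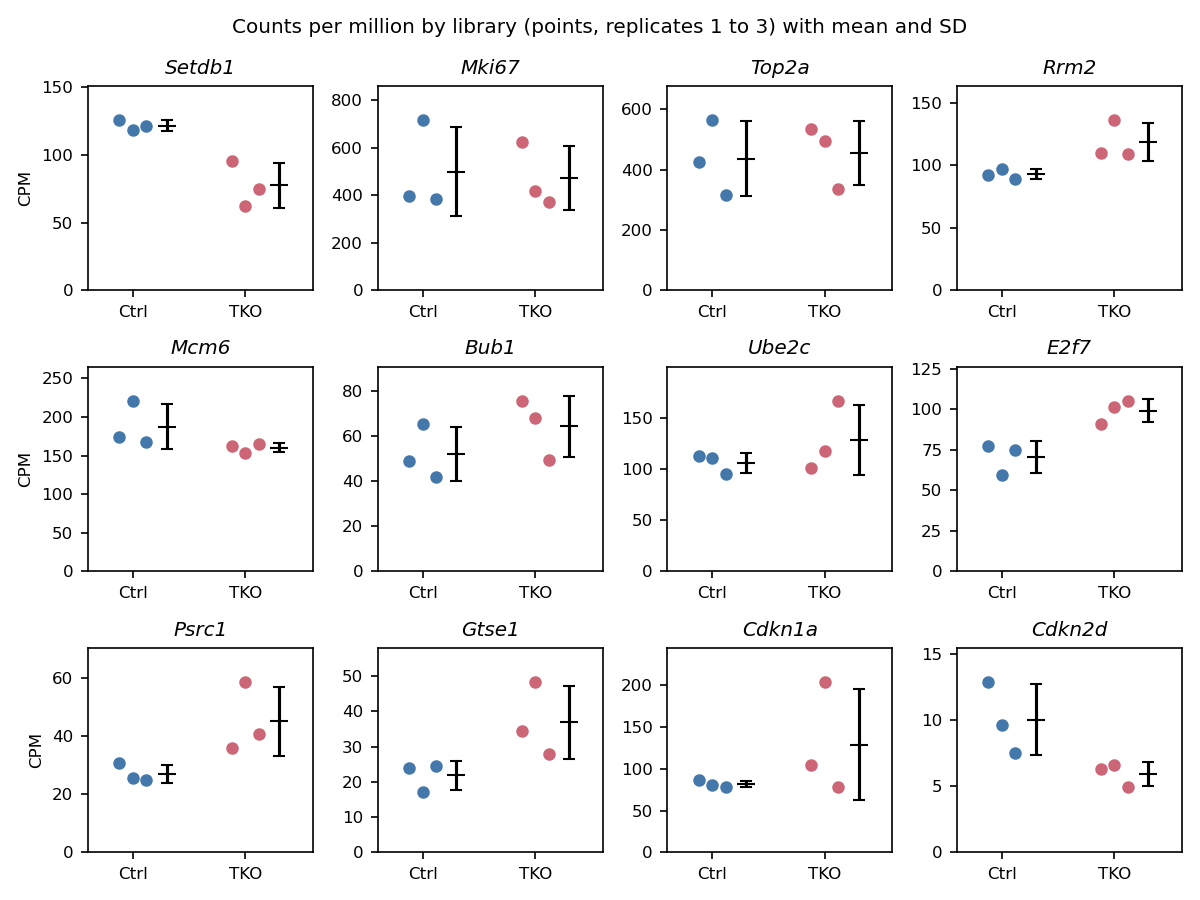
CPM (vertical axes, from 0) in 3 Ctrl and 3 TKO libraries for Setdb1, 6 members and 5 other cell cycle genes, with points for replicates 1 to 3 from left to right and bars for the mean and SD. The groups separate for Setdb1, Rrm2, Mcm6, E2f7, Psrc1, Gtse1 and Cdkn2d and overlap for Mki67, Top2a, Bub1, Ube2c and Cdkn1a.

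Per length of exon, the most abundant members were Cdc20 among G2/M genes, with a Ctrl mean of 55.1 CPM per kilobase, followed by Mki67 (48.6) and Top2a (47.8), and Pcna among S-phase genes (47.3). The least abundant were Gins2 (3.99 CPM per kilobase), Ccne2 (4.91) and Cdc6 (5.64) in S phase and Cdc25c (6.06) and Ttk (6.12) in G2/M. These levels divide CPM by the joined exon length of GENCODE vM39 and are approximate where a gene uses few of its exons.

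Libraries of the same group differed from each other. The highest Ctrl library of a G2/M member was 1.41 times its lowest in the median over the class (1.12 to 2.16 times), and the highest TKO library 1.34 times (1.005 to 2.24 times). The higher group mean was 1.07 times the lower in the median. For S-phase members the medians were 1.202 times within Ctrl, 1.15 times within TKO and 1.06 times between group means. Ctrl 3 held the lowest value of 18 of 24 G2/M members and of 6 of 16 S-phase members, and the highest value of none. The highest values of G2/M members were mostly in Ctrl 2 (9 members) and TKO 3 (8 members).

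**Figure D3:**
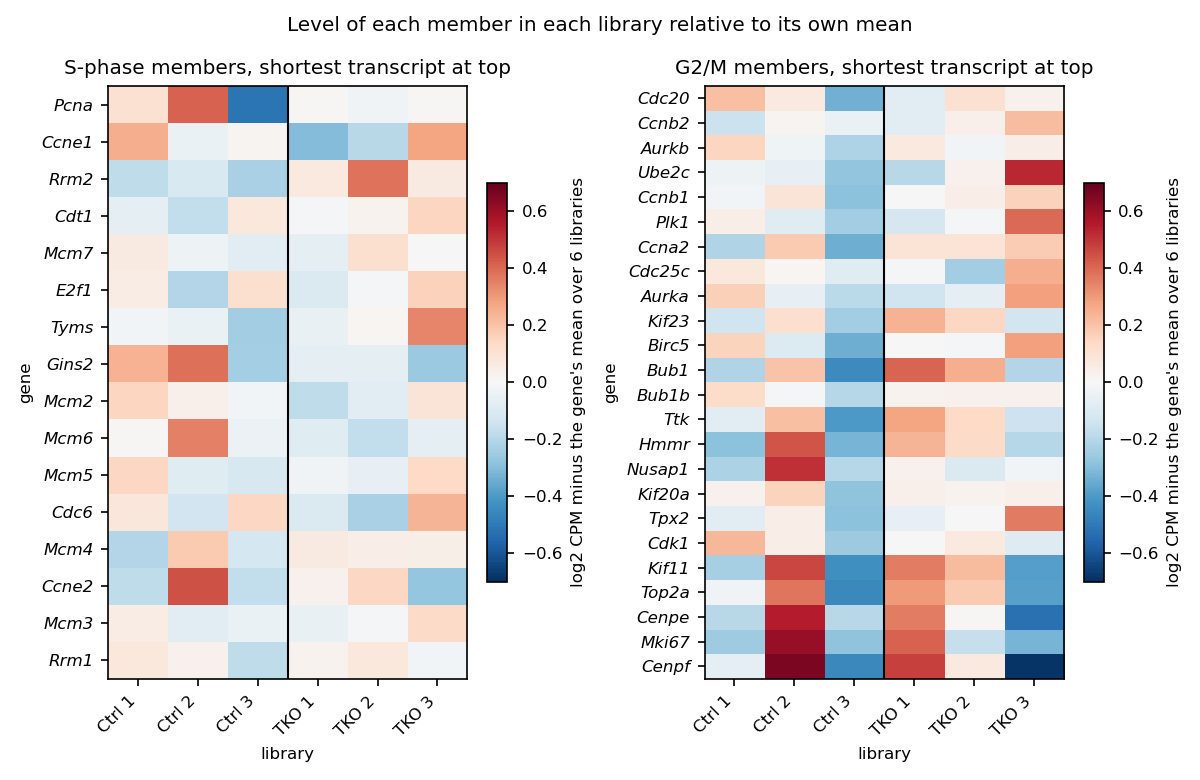
Heat map of log2 CPM minus the gene's own mean over 6 libraries (colour) for each member (vertical) in each library (horizontal), with genes ordered by transcript length, shortest at the top. Red cells for long G2/M transcripts lie in Ctrl 2 and TKO 1, and blue cells lie in Ctrl 3 and TKO 3.

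Within the G2/M class, these deviations varied with transcript length and with GC content. Long transcripts such as those of Cenpf, Mki67 and Cenpe were high in Ctrl 2 and TKO 1 and low in TKO 3. Relative to its own mean, Cenpf deviated by 0.66 in Ctrl 2 and 0.48 in TKO 1 and by -0.69 in TKO 3 on the log2 scale. Short ones behaved otherwise: Ube2c deviated by -0.06 in Ctrl 2, -0.19 in TKO 1 and 0.53 in TKO 3. Averaged over the 12 longer G2/M members, the deviation was 0.34 in Ctrl 2, 0.20 in TKO 1 and -0.19 in TKO 3. Over the 12 shorter members, it was 0.03, 0.02 and 0.17 in the same libraries. Ctrl 3 was low in both, at -0.31 and -0.25.

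Across the 24 G2/M genes, Pearson's r between log2 transcript length and the deviation was 0.79 in Ctrl 2, 0.73 in TKO 1 and -0.74 in TKO 3, and -0.38, -0.36 and -0.04 in Ctrl 1, Ctrl 3 and TKO 2. With GC content of the transcript, r was -0.71, -0.75 and 0.66 in Ctrl 2, TKO 1 and TKO 3, and 0.68, 0.46 and -0.39 in Ctrl 1, Ctrl 3 and TKO 2. Length and GC content were themselves correlated in this class (r = -0.57), so the 2 properties are not separated. These correlations run across genes that share libraries and are not independent replicates. Over 40 further G2/M genes, r with length was -0.02, 0.45 and -0.11 in Ctrl 2, TKO 1 and TKO 3, and over 20167 tested genes with a transcript it was 0.11, -0.13 and 0.13. S-phase members gave 0.01, 0.21 and -0.20. With GC content, r in these libraries was -0.57, -0.22 and 0.27 over the further G2/M genes, -0.46, -0.54 and 0.19 over S-phase members and -0.03, -0.17 and 0.10 over all tested genes. For 40 further S-phase genes it was 0.17, 0.41 and -0.14 with length and -0.52, -0.53 and 0.35 with GC content. Across the 24 G2/M members r between length and the log2 fold change was -0.54, against -0.08 across the S-phase members, 0.02 across the further G2/M genes and 0.25 across the further S-phase genes. The median log2 fold change of G2/M members was 0.15 in the 12 shorter and 0.05 in the 12 longer. When each library was scaled by a smooth function of both, the median log2 fold change of G2/M members was 0.06 and none of the 40 members was called.

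**Figure D4:**
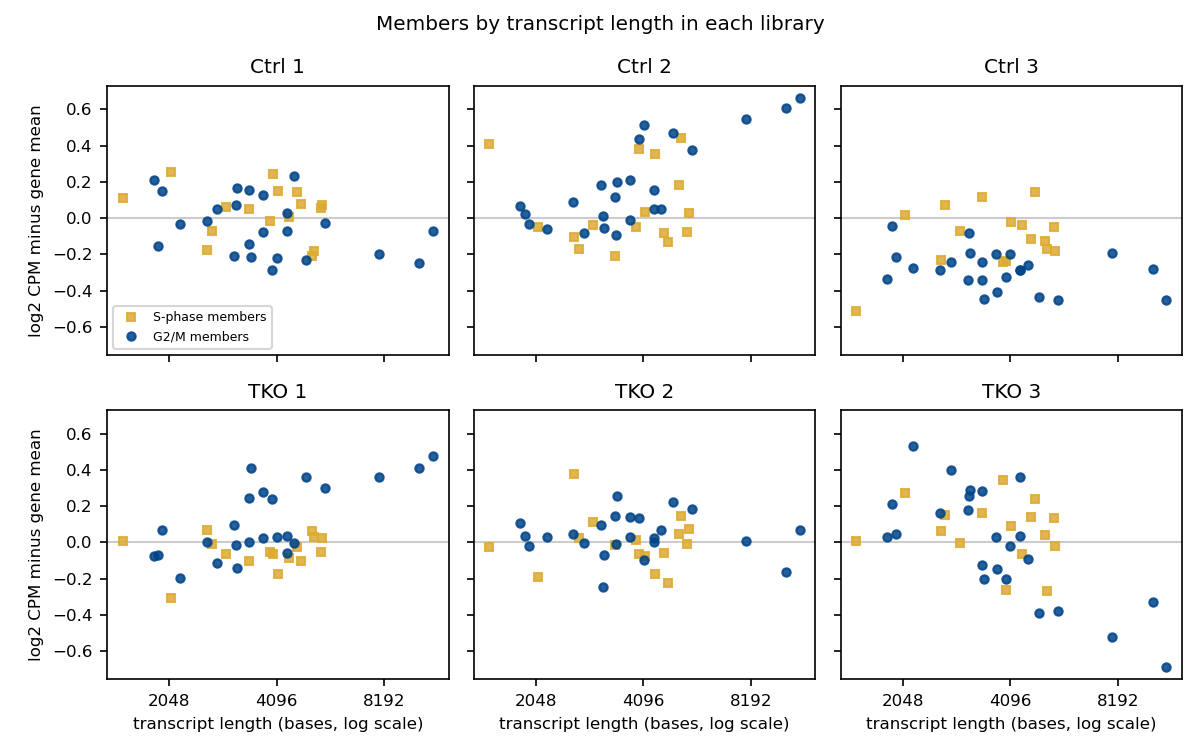
Log2 CPM minus the gene's own mean (vertical axis) against the length of the longest annotated transcript in bases (horizontal, log scale), in 1 panel per library, for 16 S-phase members (squares) and 24 G2/M members (circles). In Ctrl 2 and TKO 1 the longer G2/M transcripts lie higher, and in TKO 3 they lie lower.

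Other genes of the same machinery were read from the same fit. Of 40 further G2/M genes and 40 further S-phase genes, none was called. At an unadjusted p under 0.05, 3 G2/M genes and 1 S-phase gene were higher in TKO and none was lower, beside 6.08% of all tested genes in either direction, and median log2 fold changes were 0.06 and 0.05. Groups did not overlap for 3 genes of each list, 7.50% in either, beside 11.5% of all tested genes.

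Psrc1, a microtubule-binding protein of the spindle, was at 30.6, 25.8 and 24.8 CPM in Ctrl and 36.1, 58.7 and 40.8 CPM in TKO. Gtse1, a G2 and S phase microtubule protein that also regulates p53, was at 23.9, 17.2 and 24.6 CPM in Ctrl and 34.4, 48.3 and 28.0 CPM in TKO. In both, the groups did not overlap and TKO 2 was highest. Log2 fold changes were 0.74 (0.30 to 1.18) for Psrc1 and 0.75 (0.25 to 1.25) for Gtse1, with adjusted p of 0.342 and 0.451 by edgeR's quasi-likelihood test. Without TKO 2 they were 0.50 and 0.51. The other G2/M gene at this level was Ect2, which directs cytokinesis (log2 fold change 0.43). Among S-phase genes Blm, a helicase of DNA repair, had a log2 fold change of 0.33 (0.00022 to 0.66) and Gmnn, geminin, the inhibitor of Cdt1, of 0.54 (-0.07 to 1.15). Gmnn was at 0.29 without TKO 2 and 0.35 without Ctrl 3.

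Inhibitors of cyclin-dependent kinases ranged from -0.76 to 0.66 in log2 fold change. Of 6 tested, 1 was higher and 2 were lower in TKO at an unadjusted p under 0.05, and none was called. At that level stood 6.08% of all tested genes in either direction, 837 higher and 416 lower. Cdkn1a, p21, which halts the cycle and is a target of p53, was at 86.0, 80.5 and 78.2 CPM in Ctrl and 104.5, 203.4 and 77.9 CPM in TKO. TKO 2 held more than any other library, and TKO 3 lay just below the Ctrl range. The log2 fold change was 0.66 (0.0055 to 1.31; adjusted p = 0.813 by edgeR's quasi-likelihood test), and 0.16 without TKO 2. TKO 2 is the female library of its group, and Ctrl 1 is the female library of Ctrl. With sex as a factor the log2 fold change of Cdkn1a was 0.55. With 1 female library in each group, a part of sex in the level of TKO 2 was not tested.

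Cdkn2d, p19, an inhibitor of Cdk4 and Cdk6, was at 12.9, 9.61 and 7.54 CPM in Ctrl and 6.26, 6.57 and 4.91 CPM in TKO. Cdkn2c, p18, of the same family, was at 15.9, 16.7 and 13.3 CPM in Ctrl and 8.43, 6.57 and 12.9 CPM in TKO. The groups did not overlap in either gene, though TKO 3 nearly reached Ctrl for Cdkn2c. Log2 fold changes were -0.76 (-1.32 to -0.20) and -0.72 (-1.27 to -0.16), and adjusted p were 0.583 and 0.658 by edgeR's quasi-likelihood test. Cdkn1b, p27, was at 64.1, 68.8 and 65.4 CPM in Ctrl and 53.6, 54.5 and 75.8 CPM in TKO (log2 fold change -0.11, -0.46 to 0.24). Without TKO 1 or TKO 2 the value for Cdkn1b was -0.03, and without TKO 3 it was -0.29. Cdkn2a did not pass the filter on low counts, with at most 0.0808 CPM in Ctrl 1.

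Genes that act upstream of both classes were measured too. Of 6 G1 cyclins and kinases, Cdk6 alone had an unadjusted p under 0.05, beside 6.08% of all tested genes in either direction. Cdk6 was at 140.9, 152.0 and 157.8 CPM in Ctrl and 185.1, 194.2 and 179.6 CPM in TKO (log2 fold change 0.31, 0.04 to 0.58). Ccnd1, cyclin D1, was at 109.3, 141.1 and 120.0 CPM in Ctrl and 80.1, 135.2 and 146.6 CPM in TKO, with TKO 1 low and the others within or near the Ctrl range (log2 fold change -0.03, -0.51 to 0.45). Cdk4 gave -0.06 (-0.37 to 0.26), with -0.0037 without TKO 1 and -0.12 without Ctrl 3.

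Of 17 tested genes of the retinoblastoma, E2F and DREAM group, 2 were higher in TKO at an unadjusted p under 0.05 and none was lower. At that level 4.06% of all tested genes were higher in TKO, and 6.08% stood apart in either direction. E2f7, an E2F that represses, was at 77.1, 59.4 and 75.0 CPM in Ctrl and 90.9, 101.4 and 105.0 CPM in TKO, and the groups stood apart. Its log2 fold change was 0.49 (0.17 to 0.81) with an adjusted p of 0.419 by edgeR's quasi-likelihood test. Rb1, the retinoblastoma protein, was at 50.2, 50.3 and 62.0 CPM in Ctrl and 72.3, 76.6 and 58.6 CPM in TKO, overlapping in Ctrl 3 and TKO 3 (log2 fold change 0.35, 0.01 to 0.69). The mitotic activators overlapped between groups. Foxm1 was at 132.1, 109.8 and 121.1 CPM in Ctrl and 126.3, 127.2 and 172.6 CPM in TKO (log2 fold change 0.23, -0.12 to 0.58, and 0.07 without TKO 3). Mybl2 was at 31.7, 24.3 and 20.8 CPM in Ctrl and 28.2, 28.2 and 26.3 CPM in TKO (log2 fold change 0.11, -0.28 to 0.50, with -0.02 without Ctrl 3 and 0.29 without Ctrl 1). The median over the 17 genes was 0.08.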

How the data were processed

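RNA of sorted basal keratinocytes was depleted of rRNA and sequenced for 3 Ctrl and 3 TKO libraries. The authors trimmed reads with fastp, aligned them with STAR and deposited a table of raw counts by Ensembl gene, with each library in its own column and no normalization or pooling. The study's methods name GRCm39 and the submitters' processing notes GRCm38. The counting program, its annotation and its strand setting are not given in the sources used here, and 17 of 40 members share exon positions with a gene on the other strand. Of 55536 genes, 51477 matched GENCODE vM39, the source of symbols and lengths. Groups came from the sample labels, and sexes from the column names.

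In R 4.3.3, edgeR 4.0.16 kept genes by filterByExpr (minimum count 10, minimum total 15), scaled libraries by TMM and ran glmQLFit (robust) and glmQLFTest. P-values were adjusted by Benjamini-Hochberg over all 20622 genes tested, with none adjusted over the list of members. Confidence intervals (95%) came from the same fit, and the biological coefficient of variation was 36.5%. The fitting code was checked on data made with known changes. Alternatives were RLE factors, total count only, other low-count filters, DESeq2 1.42.0, a replicate block, sex as a factor, no robust estimation, each library left out, other thresholds and, chosen after seeing the data, an offset for transcript length and GC content (mgcv 1.9.3). Figures were drawn with matplotlib 3.10.9.

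The members and the lists of further genes were chosen with earlier results of these data known. Values in every library are given for Mki67, Top2a, Cdk1, Ccnb1, Pcna, Mcm2, E2f1 and the 5 S-phase and 5 G2/M members with the smallest p, and from the other lists for Cdkn1a, Cdkn1b, Ccnd1, Rb1, Foxm1, Mybl2 and the 2 genes with the smallest p in each list. For Gmnn, Blm and Cdk4 the fold change is given. Promoters are RefSeq sequences of GRCm38.p6. Lin54, one of 18 genes listed for the retinoblastoma group, was not analysed here.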

Additional observations from a re-analysis of the deposited data

How the results depend on the processing

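None of the 40 members was called under any alternative, and their smallest adjusted p ranged from 0.306 to 0.99999 over these fits. The number of all genes called, 27, became 235 (213 higher, 22 lower) with no low-count filter, 9 with at least 10 counts in every library, 214 with DESeq2 on the same genes (193 higher, 21 lower), 227 with the default workflow of DESeq2 (198 higher, 29 lower), and 11 at an adjusted p under 0.01. With 1 library left out it ranged from 7 to 81: 8 without Ctrl 1, 7 without Ctrl 2, 8 without Ctrl 3, 25 without TKO 1, 15 without TKO 2 and 81 without TKO 3 (65 higher, 16 lower). The replicate block gave 45 called genes, with 0 of the 40 members among them. The median log2 fold change under it was 0.03 for S-phase members and 0.09 for G2/M members. Correlations of deviations between same-numbered libraries were 0.168, 0.0873 and 0.127, and each library correlated best with its own number. The study generally used littermates without the recombinase as controls, but no source used here says that a replicate number marks a litter, so the numbers were not taken to pair the libraries.

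The count of G2/M members whose groups did not overlap, 0, became 2 with total count only and ranged from 0 to 7 with 1 library left out, where fewer libraries make non-overlap easier. For S-phase members, 2 became between 2 and 5. The share over all tested genes is not given for these settings, so these counts cannot be set against it. With 1 library left out, the median log2 fold change of G2/M members ranged from -0.03 (without Ctrl 3) to 0.21 (without Ctrl 2), and that of S-phase members from -0.02 to 0.05. With total count only they were 0.13 and 0.08, beside 0.06 for all genes. Testing with no low-count filter moved the median of all genes to -0.11, and G2/M members then had a median of 0.03 and S-phase members of -0.01.

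Of 35 named genes none crossed the call in an alternative. Signs turned for values near 0: with total count only, Cdk1 was 0.025, Pcna 0.0081 and Ccnd1 0.021. E2f1 was -0.0067 with no low-count filter, and Top2a -0.0053 with the length and GC offset. With 1 library left out, Mki67 ranged from -0.34 to 0.27, Top2a from -0.13 to 0.29, Cdk1 from -0.15 to 0.087, Pcna from -0.27 to 0.16, E2f1 from -0.065 to 0.089, Ccnd1 from -0.20 to 0.18 and Mybl2 from -0.024 to 0.29. The cause was not tested. Setdb1 had an adjusted p of 0.0050 with no low-count filter and 0.045 with DESeq2 on the same genes, and Psrc1, Gtse1 and Cdkn1a had 0.0102, 0.0136 and 0.0258 with no low-count filter, all below a log2 fold change of 1 in size. With the given strand alone, the CCAAT box was found in 63.2% of G2/M, 35.7% of S-phase and 21.1% of all promoters. E2F letters were then in 35.7% of S-phase, 10.5% of G2/M and 3.49% of all promoters, and the homology region in 57.9% of G2/M, 7.14% of S-phase and 10.2% of all.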
